A study of Mus musculus with 19 samples.

Results

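Footprints per RNA were measured for 14459 genes in wild-type hippocampal slices, by setting 4 libraries of ribosome footprints against 4 libraries of cytoplasmic RNA. These 8 libraries were taken by genotype and assay from the 14 libraries in the tables. The labels list 19 samples of the series, and the 6 libraries from Fmr1 KO mice were not used. The mice were male C57BL/6 wild-type littermates of a line backcrossed from Fmr1 KO mice, aged 28 to 35 days. Acute slices of 400 µm were cut, rested at 30 °C for 3 to 4 h in artificial cerebrospinal fluid, treated with cycloheximide (100 µg/ml), which stalls elongating ribosomes, and frozen. Each replicate was a pool of 8 to 10 slices from 6 to 8 mice. Per the protocol CA3 was removed for an enrichment of CA1, but the source name speaks of hippocampal-cortical slices, so some cortex may be present. All cell types of the slice contribute, and a value is an average over them.

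In ribosome profiling, lysate is digested with RNase and the short mRNA pieces covered by ribosomes are sequenced. The number of footprints on a coding sequence, divided by the amount of its RNA, is used as a relative measure of how densely ribosomes occupy that mRNA (often called translational efficiency). In neurons many mRNAs are transported into dendrites and axons before they are translated. mRNAs of ribosomal proteins carry a pyrimidine tract at the cap by which growth signals set their translation, and some stress-response mRNAs are held back by short upstream reading frames. Footprint density also depends on how fast ribosomes move: slow or stalled ribosomes leave as many footprints as frequent initiation does, and the values here do not tell these apart.

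The quantity used throughout is the log2 ratio of footprints to RNA from edgeR's fit to the estimated counts. It was scaled so that a typical gene lies near 0 (the median gene lies at 0.03), and 1 unit is a 2-fold difference. The scaling removes any difference shared by all genes. A gene was called high or low when its Benjamini-Hochberg adjusted p was under 0.05 (edgeR quasi-likelihood test) and its log2 ratio was at least 1 or at most -1 (the 2-fold minimum). Levels are in TPM (transcripts in a fixed total), a unit that is per length and can be set side by side between genes. The log2 ratio lies 0.40 (median over genes) above the log2 of footprint TPM over RNA TPM. A gene with a log2 ratio of 0 thus has fewer footprint TPM than RNA TPM. Every value rests on 4 libraries per assay, ± is the SD over libraries for levels and the SE for log2 ratios, and nothing says how far replicate pools shared mice.

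The 2 assays ranked genes alike, and footprints per RNA still differed widely among genes. Across the 14355 genes tested, log2 mean TPM in footprints and RNA had a Pearson correlation of 0.894, a description across genes that share the same 8 libraries. The log2 ratio ran from -1.68 at the 5th percentile to 1.77 at the 95th. Its SD over genes was 1.06, against a median SD of 0.118 for 1 gene over the replicate numbers. Between replicate numbers, the ratios of all genes correlated at 0.964 to 0.978. Of the genes tested, 79.3% differed from the typical ratio at any size (adjusted p under 0.05, edgeR). With the 2-fold minimum, 2238 genes (15.6%) were high and 2153 (15%) were low, together 30.6%. In all 4391 called genes the 4 footprint libraries lay wholly on one side of the 4 RNA libraries, as they did for 41.1% of all genes above and 39.1% below.

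Depth differed between assays, with 4.97 to 6.76 M estimated counts per RNA library and 15.57 to 22.71 M per footprint library, and log2 TPM of replicates correlated at 0.993 to 0.996 in RNA and 0.998 to 0.999 in footprints. No library stood apart in total, in median count or in the share of its 10 most abundant genes. The deposited values have a floor near 1 TPM (lowest 0.88 to 1.0). For the 2791 genes under 3 TPM in either assay, the floor draws footprint TPM and RNA TPM together. Equal TPM in both assays is a log2 ratio near 0.40 on the scale used here. Defining markers of the labelled tissue were present. The 20 CA1 pyramidal markers had a median of 211 TPM in RNA, the 20 astrocyte markers 266 TPM and the 20 myelin markers 173 TPM, while the 20 microglial markers had 48.3 TPM, the 20 fibroblast and matrix markers 11.3 TPM and the 21 dentate and CA3 markers 43.8 TPM.

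**Figure D1:**
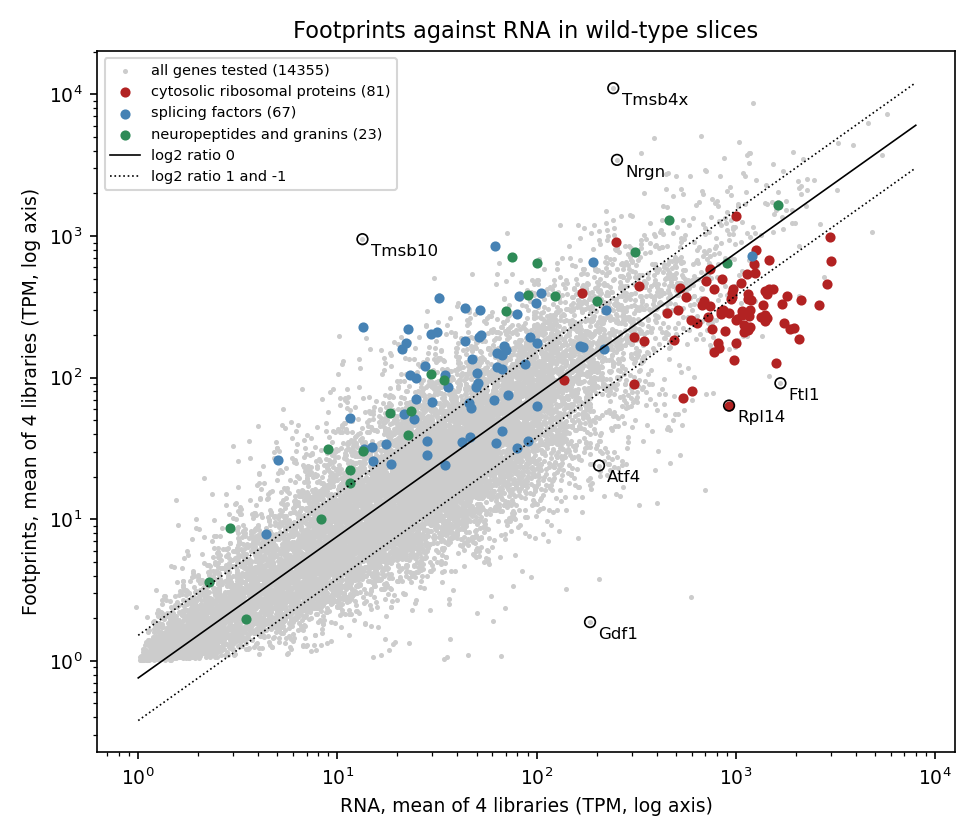
Mean footprint level against mean RNA level (TPM, both axes logarithmic) for all genes tested, over 4 libraries each. The solid line marks a log2 ratio of 0 and dotted lines 1 and -1. Cytosolic ribosomal protein genes (red) lie mostly under the lower dotted line, while splicing factors (blue) and neuropeptides and granins (green) lie mostly above the upper one. Circles mark named genes.

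Cytosolic ribosomal proteins had the lowest median of the gene lists with over 5 measured members. Of 81 measured, 50 were low and 2 high, with a median log2 ratio of -1.37 against 0.03 over all genes, where 15% were low. Both subunits took part: 28 of 48 large-subunit genes and 22 of 33 small-subunit genes were low, with medians of -1.23 and -1.64. Their median level was 1003 TPM in RNA and 298 TPM in footprints. Rpl14 gave the lowest value. Its RNA was 872, 919, 929.8 and 977 TPM in the 4 libraries and its footprints were 63.2, 62.9, 61.8 and 66.1 TPM, a log2 ratio of -3.47 ± 0.05 (adjusted p = 4.47e-25, edgeR). Every footprint library of Rpl14 thus lay more than 10-fold below every RNA library. Rps12 (-3.25 ± 0.04) and Rps2 (-3.06 ± 0.05) followed, and Rpl13 (-2.68 ± 0.04) was the next lowest of the large subunit. Rps12 RNA was 1588 ± 24.9 TPM and its footprints were 127 ± 5.63 TPM.

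The exceptions were few. Rpl39, a very short large-subunit protein, was high at 2.24 ± 0.08, with footprints of 985, 830.4, 907 and 908 TPM against RNA of 221, 279.6, 292 and 214 TPM. Rpl36al, an expressed copy of Rpl36a, was high at 1.62 ± 0.05. With the trend over coding length removed (described further on), neither passed the minimum, at 0.46 for Rpl39 and 0.71 for Rpl36al. In the small subunit no gene was high, and the least low were Rps27l (-0.11), a paralog of Rps27 whose own ratio was -2.72, and Rps16 (-0.27). Many ribosomal protein genes have near-identical pseudogenes, and reads shared with them make single values uncertain.

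Start sites are shown because a pyrimidine tract at the cap is the known mark of these mRNAs. A RefSeq start (GRCm38.p6) was at hand for 60 of the ribosomal protein genes and 11385 of all genes. A start was scored as a tract when its first base was C and at least the next 4 were C or T, on the strand of the gene. The first 20 bases follow for 7 of the 14 ribosomal protein genes with such a start, from the lowest ratio to the highest, with the tract in capitals. These 7 were chosen after their values were seen, to span the range.
Rpl14 (chr9:120571517-120571536, plus strand, ratio -3.47): CTTCTCgctgagcgccgcca
Rps27 (chr3:90213629-90213648, minus strand, ratio -2.72): CCTTTCCggcggtgacgacc
Rps15a (chr7:118116128-118116147, minus strand, ratio -1.80): CTTCCCTCgccggtgagtga
Rps10 (chr17:27635225-27635244, minus strand, ratio -1.71): CTTCCTTTCCagcctccgcc
Rps6 (chr4:86857348-86857367, minus strand, ratio -0.82): CTCTTTTTCgtgacgcctcc
Rpl15 (chr14:18270967-18270986, minus strand, ratio -0.79): CTTCCTTTCCTCTggcggca
Rpl38 (chr11:114668580-114668599, plus strand, ratio 0.87): CTTTCCCCgttctcttcggt

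Tracts at the annotated start were found in 14 of 60 ribosomal protein genes (23.3%) and in 334 of 11385 genes overall (2.93%). Annotated starts can lie some bases off the cap: with a tract allowed to begin up to 5 bases before or after the annotated start, the shares were 50% and 23.8%. Ratios showed no steady direction with the tract. Ribosomal protein genes with it had a median of -1.15 and those without -1.33, and over all genes the medians were -0.00096 with and 0.03 without. Among ribosomal protein genes the order depended on the definition: with 6 pyrimidines after the C the medians were -0.82 with and -1.29 without, and with the tract within 5 bases -1.33 with and -1.10 without. Of the sequences above, Rpl14 has 6 tract bases and Rpl15 has 13. The other mRNAs known to carry the tract were divided, with 4 of 18 low (22.2%) and 3 high (16.7%). These shares compare with 15% low and 15.6% high of all genes, and the median was -0.08. Gnb2l1 (Rack1), a ribosome-bound scaffold, lay at -2.19 ± 0.04 and the elongation factor subunit gene Eef1g at -1.90 ± 0.04. In that list 3 of the 12 genes with a RefSeq start had a tract, and their median was -0.93 against 0.16 without. Npm1, a nucleolar chaperone, lay at 3.36 ± 0.06 and Nap1l1, a histone chaperone, at 2.64 ± 0.05.

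Initiation factors outside eIF3, aminoacyl-tRNA synthetases and mitochondrial ribosomal proteins each had more high than low genes. Of all genes 15.6% were high and 15% low. Initiation factors outside eIF3 had 10 of 27 genes high (37.0%) and 1 low. Eif1ax, the factor that helps scan for the start codon, was high at 2.82 ± 0.06, and Eif2s2, the beta subunit of eIF2, at 2.34 ± 0.06. Eif2b5, of the eIF2 exchange factor, was the low one at -1.63 ± 0.04. Among 20 aminoacyl-tRNA synthetases, 5 were high (25%) and none low. Of 76 mitochondrial ribosomal proteins 17 were high (22.4%) and 1 low, with a median of 0.34. With the trend over coding length removed that list's median relative to all genes turned from 0.31 to -0.07.

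The 2 highest ratios belonged to very short coding sequences. Tmsb10 and Tmsb4x, which encode the actin-monomer-binding thymosins, had log2 ratios of 6.54 ± 0.21 and 5.88 ± 0.08 (adjusted p = 8.75e-16 and 6.61e-25, edgeR). Tmsb4x (GRCm38 chromosome X, 167207093 to 167213479) had the most footprints of any gene, 11129, 10964, 10355 and 11844 TPM, on RNA of 172, 215, 292 and 291 TPM. For both, the gene model leaves only 25 countable codons. Tmsb10 RNA ran from 8.27 to 17.1 TPM. A per-length value on so short a model rests on few read positions in either assay.

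Npcd at 4.62 ± 0.22, next in the order, overlaps Cbx6 and Nptxr, and gene-level values do not say whose reads were counted. Of the 20 genes with the highest ratios, 5 (25%) overlap another coding gene, against 20.0% of all genes. Below Npcd came a group of nuclear RNA-binding and chromatin proteins: the hnRNP genes Hnrnpd (4.50), Hnrnpa2b1 (4.18) and Hnrnpa3 (3.89), the La protein gene Ssb (4.17), Zranb2 (3.98), the heterochromatin protein gene Cbx3 (3.90), Dek (3.89) and the prothymosin gene Ptma (4.47). Hnrnpd footprints were 230.4, 223, 228 and 226 TPM on RNA of 13.4, 15.2, 11.7 and 13.1 TPM. The remaining genes of the top 20 were Ccdc25 (4.01), the ubiquitin-conjugating enzyme variant Ube2v2 (3.96), centrin 3 (Cetn3, 3.82), Abracl (3.82), Eif3j1 (4.00) and the synaptic and calcium-signalling genes Cplx2, Nrgn, Calm2 and Ppp3r1. Several of these genes have processed pseudogenes that could share their reads.

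Calm2 and Calm3 encode the same protein, the calcium sensor calmodulin, and have 130 countable codons each, so their values are directly comparable. Both were high, at 4.06 ± 0.06 and 2.12 ± 0.07. Calm2 RNA was 364, 427, 407 and 362 TPM and its footprints 5306, 4995, 4580.1 and 4775 TPM. Calm3 RNA was 1065, 1386, 1126 and 1083 TPM and its footprints 3989, 4018, 3604 and 3747 TPM. Calm2 therefore had less RNA than Calm3 in every library and more footprints in every library. Neurogranin (Nrgn, 4.17 ± 0.06), which binds calmodulin in dendritic spines, had footprints of 3488, 3449, 3506 and 3361 TPM on RNA of 227, 282, 271 and 232 TPM. Ppp3r1, the regulatory subunit of calcineurin, a phosphatase that calmodulin activates, lay at 3.93 ± 0.05 with footprints of 3880.0 ± 143 TPM.

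**Figure D2:**
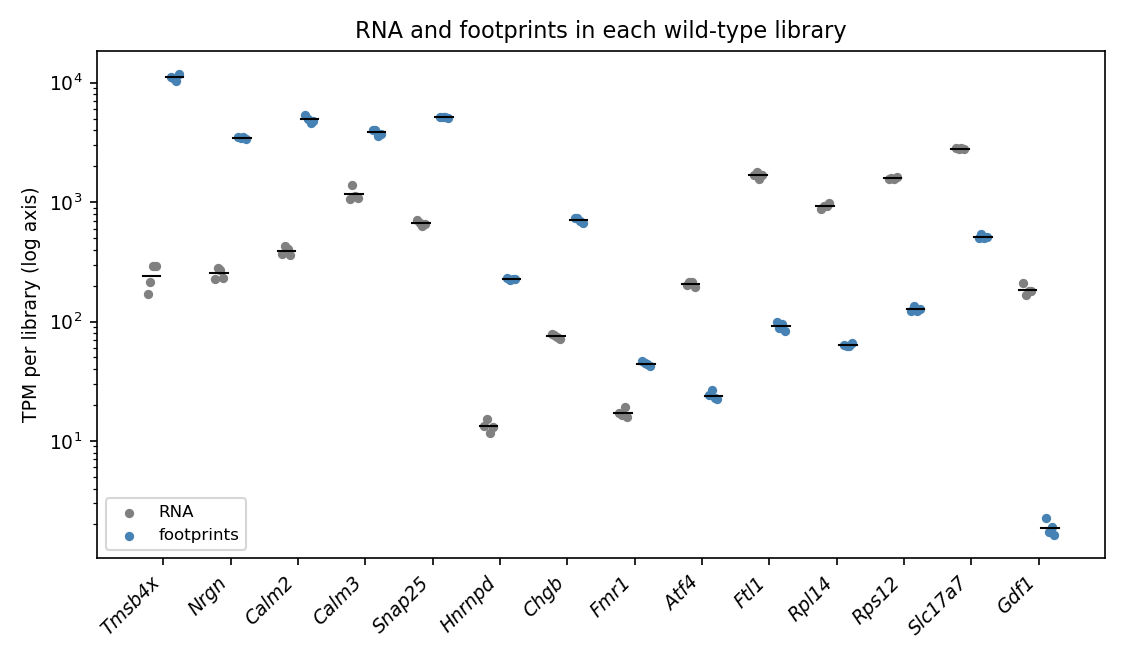
TPM in each RNA library (grey) and footprint library (blue) for 14 named genes, on a log axis, with a black bar at the mean of 4 libraries. Libraries of 1 assay lie close together beside the gap between assays, with footprints above RNA from Tmsb4x to Fmr1 and below it from Atf4 to Gdf1.

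The genes with the most footprints included Tmsb4x, Cst3, Snap25, Calm2, Ywhaz, Atp6v0c, Ppia and Gpm6a. Cystatin C (Cst3) reached that level mainly through RNA, with 4627 ± 188 TPM and a ratio of 0.85. Others reached it on far less RNA. Snap25, a SNARE protein of synaptic vesicle fusion, had RNA of 704, 671, 634 and 649 TPM and footprints of 5191, 5116, 5108 and 5039 TPM, a ratio of 3.35 ± 0.04. The 14-3-3 gene Ywhaz lay at 2.56 and the neuronal glycoprotein Gpm6a at 1.43. The peptidyl-prolyl isomerase gene Ppia (0.58) and the proton-channel subunit gene Atp6v0c (0.89) were within 2-fold of the typical gene. In all, the 10 most abundant genes held 5.88 to 6.11% of footprint TPM, and the 10 most abundant RNAs held 3.87 to 3.97%.

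Splicing factors had the most high genes of any list by number, though smaller lists such as neuropeptides and granins (82.6%) had a larger share. Of 67 splicing genes measured, 46 (68.7%) were high and none low, against 15.6% high and 15% low of all genes. The list median was 1.53. The range ran from Srsf9 (-0.95) and Prpf8 (-0.93), which missed the 2-fold minimum, to Hnrnpa2b1 and Hnrnpd. Hnrnpa2b1, which binds both introns and transported neuronal RNAs, had RNA of 67.3, 60.0, 60.5 and 59.5 TPM and footprints of 874, 813, 863 and 831 TPM.

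Chaperones showed the same direction. Among heat shock proteins and their cochaperones 14 of 20 were high (70%, against 15.6% of all genes), none low, and the median was 1.45. The HSP40 gene Dnaja1 lay at 3.50 ± 0.05 and Ptges3, the HSP90 cochaperone p23, at 3.15 ± 0.06. The stress-inducible HSP70 pair Hspa1a (-0.66) and Hspa1b (-0.27) lay at the other end, at levels of 3.25 to 7.60 TPM. These 2 genes are near-identical and share reads. Of 6 prefoldin subunits, which hand nascent actin and tubulin to the chaperonin TRiC, 5 were high. Vbp1 was highest (2.60) and Pfdn5 the exception (-0.60). With the trend over length removed the prefoldin median relative to all genes went from 1.72 to 0.94. TRiC itself had 2 of 8 subunits high (25%) and none low.

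Neuropeptides and granins, the cargo of dense-core vesicles, had high ratios. Of 23 neuropeptides, granins and their processing partners, 19 were high (82.6%, against 15.6% of all genes) and none low, with a median of 1.71. Chromogranin B (Chgb), a core protein of dense-core vesicles, had RNA of 78.4, 76.6, 73.7 and 71.3 TPM and footprints of 738, 734, 693 and 669.7 TPM, a ratio of 3.64 ± 0.05 (adjusted p = 4.47e-25, edgeR). Secretogranin 3 (Scg3) lay at 3.08 ± 0.05. Among the 4 not high were Pcsk1n, the proSAAS inhibitor of prohormone convertase (-0.08), and Npw, the lowest (-0.36), which was near the floor of the values with footprints of 1.97 ± 0.259 TPM. The list held 5 genes that also mark interneurons.

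Genes of folding and translocation in the endoplasmic reticulum had 14 of 32 high (43.75%, against 15.6% of all genes) and none low. The chaperones Hsp90b1 (GRP94) and Hspa5 (BiP) lay at 2.67 ± 0.06 and 2.45 ± 0.06, and the oligosaccharyltransferase subunits Stt3b (-0.27) and Ddost (-0.04) at the lower end. The proton pump that acidifies vesicles and lysosomes has a cytosolic and a membrane sector. In the cytosolic V1 sector 7 of 9 subunits were high, from Atp6v1b2 (0.45) to Atp6v1d (1.99), and the median was 1.55. In the membrane V0 sector, accessory proteins included, 3 of 9 were high and 1 low, the median was 0.52, and values ran from Atp6v0a2 (-1.55) to Atp6ap2 (1.96). Other lysosomal genes lay closer to the typical gene, with 6 of 32 high (18.75%) and 2 low (6.25%, against 15% of all genes).

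**Figure D3:**
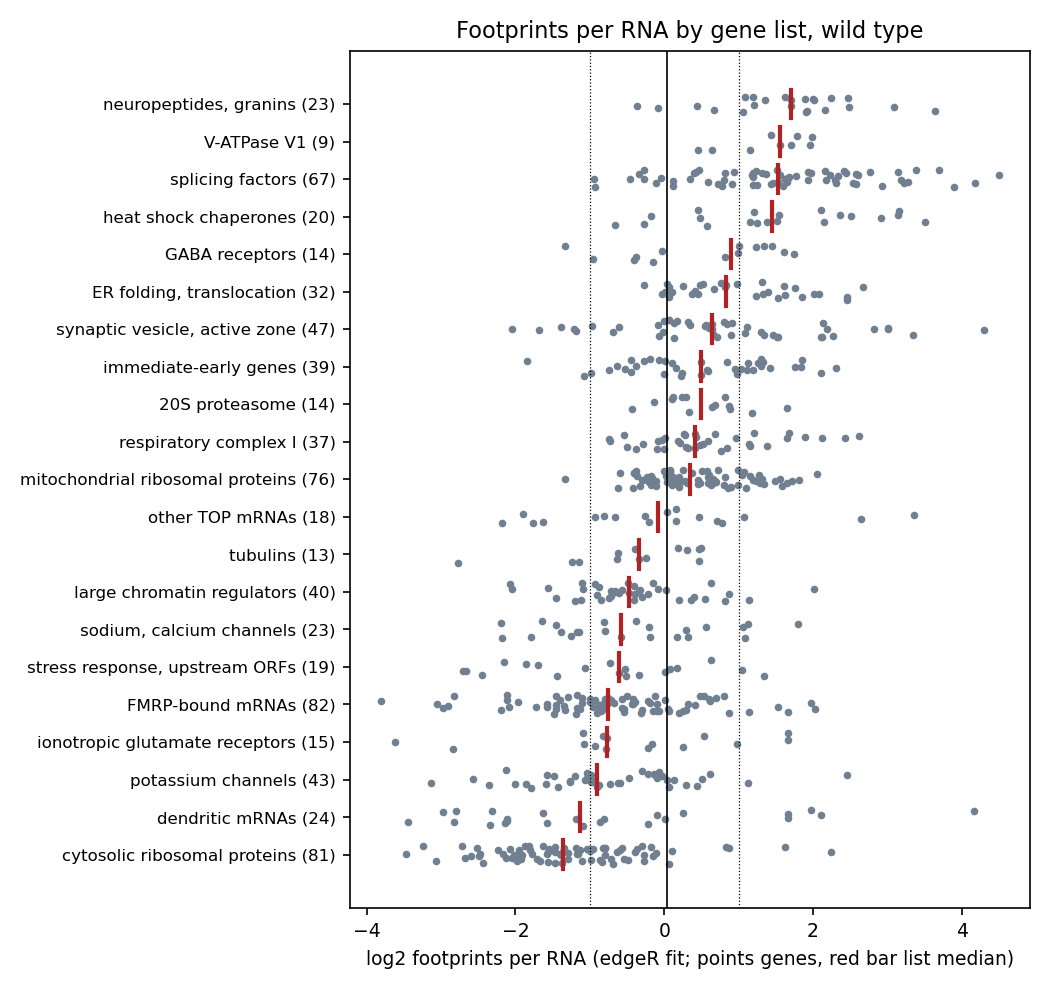
Log2 footprints per RNA of each measured gene (points) in 21 gene lists, with the list median as a red bar and the number of measured genes in brackets. The black line is the median of all genes and dotted lines mark -1 and 1. Medians run from -1.37 for cytosolic ribosomal proteins to 1.71 for neuropeptides and granins, and most lists span more than the distance between neighbouring medians.

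Synaptic genes ranged from among the highest ratios of the slice to among the lowest. Of 47 synaptic vesicle and active zone genes 17 were high (36.2%, against 15.6% of all genes) and 5 low (10.6%, against 15%). Their median was 0.64. Complexin 2 (Cplx2), which clamps SNARE complexes, was highest at 4.30 ± 0.06, with footprints of 1045, 1057, 1084 and 1035 TPM on RNA of 73.4, 74.7, 62.0 and 74.4 TPM. Its RNA in replicate 3 lay below the other 3 libraries. At the low end was Slc17a7, the vesicular glutamate transporter VGLUT1 of excitatory terminals, with RNA of 2816, 2756, 2809.6 and 2755 TPM, footprints of 502, 536, 502 and 509 TPM and a ratio of -2.04 ± 0.04. The calcium sensor Syt7 lay at -1.69.

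Postsynaptic scaffold and spine genes had 4 of 33 high (12.1%) and 9 low (27.3%), against 15.6% and 15% of all genes. Their median was -0.35. With the trend over length removed that median relative to all genes went from -0.38 to -0.18. Ddn (dendrin) had RNA of 1478, 1517, 1357 and 1545 TPM and footprints of 96.1, 105, 107 and 103 TPM, a ratio of -3.44 ± 0.05, so its footprint libraries all lay more than 10-fold below its RNA libraries. The scaffold gene Shank1 lay at -2.97 ± 0.05. At the high end were Nrgn and Camk2a, the alpha subunit of CaMKII, at 1.66 ± 0.04. Its partner Camk2b, chosen after its value was seen, lay at 0.06. A list of 24 mRNAs known to be carried into dendrites shared 10 with the postsynaptic genes. Of the 24, 13 were low (54.2%) and 5 high (20.8%), with a median of -1.14. With the trend over length removed the median of this dendritic list relative to all genes went from -1.17 to -0.78. In this list Ddn and Shank1 were the lowest members, and Bdnf (2.11), a secreted growth factor, and Nrgn the highest.

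Receptors and channels covered a wide range. Among 14 GABA receptor subunits 6 were high (42.9%, against 15.6% of all genes) and 1 low, with a median of 0.90. The high subunits all belonged to GABA-A receptors, the chloride channels of fast inhibition, led by Gabra2 (1.74 ± 0.04). The lowest were both subunits of the G-protein-coupled GABA-B receptor, Gabbr1 (-1.34 ± 0.04) and Gabbr2 (-0.96 ± 0.04, not called). Gabra2 had RNA of 186, 172, 182 and 185 TPM and footprints of 461, 455, 451 and 471 TPM, while Gabbr1 had RNA of 612, 644, 627 and 632 TPM and footprints of 188, 192, 186 and 188 TPM. Gabbr1 therefore had more RNA than Gabra2 in every library and fewer footprints in every library.

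Of 15 ionotropic glutamate receptor subunits 2 were high (13.3%) and 4 low (26.7%), against 15.6% and 15% of all genes. Their median was -0.77. The genes of AMPA receptors, which carry fast excitation, held the top 3 places: Gria2 at 1.67 ± 0.04, Gria3 at 1.67 ± 0.04, and Gria4 at 0.98, just under the minimum. Gria4 passed it without RNA replicate 1 or 3 or footprint replicate 3 (1.00, 1.02 and 1.02). The fourth, Gria1, lay at 0.25. Gria1 had the more RNA, 443, 446, 415 and 444 TPM against 237, 208, 217 and 228 TPM for Gria2, and the fewer footprints, 392, 393, 391 and 397 TPM against 529, 538, 531 and 537 TPM. Among NMDA receptor genes the obligate subunit Grin1 lay at 0.54, Grin2b at -0.22, Grin2a at -0.93 and Grin2c at -2.83 ± 0.05. The kainate receptor gene Grik5 was lowest at -3.62 ± 0.04, with RNA of 273, 273, 267 and 276 TPM and footprints of 16.0, 16.9, 17.4 and 16.8 TPM.

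Potassium channels had 17 of 43 genes low and 2 high, only 8 lay above the median of all genes, and they had a median of -0.90. Kcnh3, a brain ether-a-go-go-like channel, had RNA of 112, 110.2, 112 and 119 TPM and footprints of 9.51, 9.93, 9.82 and 9.88 TPM, a ratio of -3.13 ± 0.04, and Kcnn1, a calcium-activated SK channel, lay at -2.57 ± 0.06. Both high members encode cytosolic auxiliary subunits rather than pores, Kcnip4 (2.46 ± 0.06) and Kcnab1 (1.12 ± 0.05). Sodium and calcium channels had 9 of 23 low (39.1%) and 4 high (17.4%). Of all genes 15% were low and 15.6% high. With the trend over length removed the median of sodium and calcium channels relative to all genes went from -0.62 to -0.24. The lowest members of this list were the pore genes of T-type calcium channels Cacna1g (-2.19) and Cacna1i (-2.17). The highest were the auxiliary subunit genes Scn2b (1.79) and Cacna2d1 (1.13).

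FMRP is the RNA-binding protein encoded by Fmr1 and lost in fragile X syndrome, and these mice carry the intact gene. Fmr1 (GRCm38 chromosome X, 68678536 to 68717963) was high itself: RNA was 17.3, 16.6, 19.3 and 16.0 TPM, footprints were 46.3, 44.7, 43.8 and 42.7 TPM, and the ratio was 1.75 ± 0.06 (adjusted p = 4.81e-18, edgeR). Its relatives differed. Fxr1 lay at 2.36 ± 0.07 and Fxr2, with more RNA than either (67.4 ± 4.10 TPM), at -0.33. The partner Caprin1 lay at 2.12, Cyfip1 at -0.31 and Cyfip2 at -1.09. A list of 82 mRNAs known to be bound by FMRP in brain was partial and compiled from general knowledge, not from a binding dataset. In this list 27 were low (32.9%, against 15% of all genes) and 5 high (6.10%, against 15.6%), with a median of -0.76. Its members share 13 genes with the postsynaptic list and 6 with sodium and calcium channels. They are long, with a median of 1774 countable codons against 451 over all genes, and with the trend over length removed their median relative to all genes moved from -0.79 to -0.41. Adcy1, a calmodulin-stimulated adenylyl cyclase, had RNA of 510.5, 541, 484 and 553 TPM, footprints of 26.2, 30.8, 27.1 and 29.2 TPM and a ratio of -3.81 ± 0.06. Bai2 (Adgrb2), an adhesion receptor gene, lay at -3.06 ± 0.04. App, the amyloid precursor protein gene (2.03 ± 0.04), and Map2, a dendritic microtubule-associated protein gene (1.97 ± 0.06), were the highest. No comparison of genotypes enters these values.

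mRNAs held back by upstream reading frames were more often low than high. In the list of stress-response mRNAs and others known for upstream reading frames, 8 of 19 were low (42.1%) and 2 high (10.5%). The shares over all genes were 15% low and 15.6% high. The median of this list was -0.60. Atf4, the transcription factor of the integrated stress response, had RNA of 203, 213, 213 and 194 TPM and footprints of 24.2, 26.5, 22.8 and 22.4 TPM, a ratio of -2.71 ± 0.05 (adjusted p = 2.18e-22, edgeR). Ppp1r15a (GADD34), a phosphatase subunit that ends that response, had RNA of 50.4, 52.2, 47.7 and 49.0 TPM and footprints of 6.05, 5.86, 5.95 and 5.82 TPM, a ratio of -2.67 ± 0.05. Slc35a4 (-2.45), Atf5 (-1.70) and Ddit3 (-1.44), all chosen after their values were seen, were low as well. The high members were Eprs (1.35), a tRNA synthetase, and catalase (Cat, 1.04). Cat was just past the minimum and missed it with library totals in place of TMM.

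Polyamine genes, which are under feedback at the level of translation, had 4 of 9 low (44.4%, against 15% of all genes) and none high. The low genes were the antizyme Oaz1 (-2.13 ± 0.04), which needs a frameshift, Amd1 (-1.86 ± 0.05), Odc1 (-1.82 ± 0.05) and Smox. Odc1, the ornithine decarboxylase, had RNA of 146, 159, 153 and 148 TPM and footprints of 34.8, 31.9, 33.3 and 30.6 TPM. Of 9 iron-regulated genes, 2 were low (22.2%) and 1 high (11.1%), against 15% and 15.6% of all genes. The ferritin light chain gene Ftl1, whose mRNA is held back by iron regulatory proteins at its 5′ end, had RNA of 1669, 1785, 1546 and 1693 TPM and footprints of 98.8, 88.5, 95.2 and 82.8 TPM, a ratio of -3.79 ± 0.06. The iron exporter gene Slc40a1, with the same kind of element, lay at -1.64 ± 0.08, at footprints near 2 TPM. The transferrin receptor gene Tfrc, regulated through RNA stability instead, was high at 1.14 ± 0.05. Ftl1 has pseudogenes and a close copy that could share reads. The selenoprotein list holds genes whose mRNAs decode UGA as selenocysteine, and also the selenium-binding protein gene Selenbp1 (-1.01, low), which is not of that kind. The list had 4 of 19 low and 2 high, near the 15% low and 15.6% high of all genes. Gpx4 lay at -2.05 ± 0.04, Sephs2 at -1.87 ± 0.06 and the short Selk at 1.80 ± 0.05. With the length trend removed Selk did not reach the minimum, at 0.76.

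The 20 lowest genes were of another kind. They led with Gm5148 (-7.28 ± 0.09), whose RNA of 574, 598, 645 and 573 TPM was met by footprints of 2.50, 2.75, 3.77 and 2.23 TPM, and Gdf1 (-6.21 ± 0.08), with RNA of 211, 168, 181 and 182 TPM and footprints of 2.26, 1.72, 1.91 and 1.62 TPM. Gdf1 (GRCm38 chromosome 8, 70315775 to 70331592) is known to share a transcript with Cers1, the ceramide synthase gene. Of these 20 genes, 8 (40%) overlap another coding gene, against 20.0% of all genes. The pairs included Slc3a1 with Prepl, Ackr1 with Cadm3, Gp1bb with Septin5 and Gpr39 with Lypd1. Gene-level counts do not separate the reads of overlapping genes, and their part in these ratios was not tested. Footprints were under 3 TPM for 11 of the 20. In Slc3a1 (-5.51), Sp140 (-4.95), Hipk4 (-4.65) and Klhl34 (-4.64) their means were 1.03 to 1.10 TPM, which is the floor of the values.

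Some of the lowest genes were well above the floor and overlap no other coding gene. Metrn, the secreted neurotrophic factor meteorin, had RNA of 403, 392, 387 and 425 TPM and footprints of 13.6, 13.2, 12.3 and 12.6 TPM, a ratio of -4.56 ± 0.05. Cenpb, a centromere-binding protein gene, lay at -4.29 ± 0.05 with footprints of 12.5 ± 0.490 TPM, and the kinase gene Map3k10 at -4.05 ± 0.05 with 7.39 ± 0.300 TPM. Others of the 20 lowest were Lrrc10b (-5.36), Dennd1b (-5.05), Ackr1 (-4.58), Gp1bb (-4.31), Gal3st1 (-4.17), the histone gene Hist1h2bq (-4.14), the adrenergic receptor gene Adra2c (-4.08), Gpr39 (-3.94) and Mllt6 (-3.89).

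The only long non-coding RNA among them was 1500012F01Rik (current symbol Zfas1), with RNA of 57.1, 73.3, 87.4 and 58.2 TPM, footprints of 1.56, 3.42, 2.23 and 2.24 TPM and a ratio of -4.49 ± 0.17. Only 12 genes with a non-coding annotation were tested, 4 long non-coding RNAs and 8 transcribed pseudogenes, too few to describe untranslated RNA. Of these 12, 3 were low and none high, where 15% of all genes were low, and their median was -0.65. The median was -1.25 for the long non-coding RNAs and -0.53 for the transcribed pseudogenes. Some pseudogenes were near the floor, such as Mx2 with footprints of 1.28 ± 0.126 TPM. The highest, B230217C12Rik, annotated as a long non-coding RNA, had 0.40 ± 0.09, with footprints of 118 ± 12.7 TPM on RNA of 117 ± 12.8 TPM. It was chosen after its value was seen. Genes encoded by the mitochondrial genome were not among those measured.

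Coding length went with footprints per RNA across all genes. The count and TPM of a gene share a length term, which was a whole number of codons for 84.7% of genes and is called countable codons here. In the decile of genes with 25 to 167 countable codons the median log2 ratio was 0.77, and it declined to -0.31 in the decile with 1147 or more. The share called high went from 41.1% to 4.94% and the share called low from 7.85% to 21.2%. The rank correlation across genes was -0.258, a description over genes that share the same libraries. Genes of like length still differed widely: in the second decile the quartiles were -0.32 and 1.01. Cytosolic ribosomal proteins went against the trend: they are short (median 132 countable codons) and low, and with the trend removed their median relative to all genes went from -1.40 to -1.98.

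**Figure D4:**
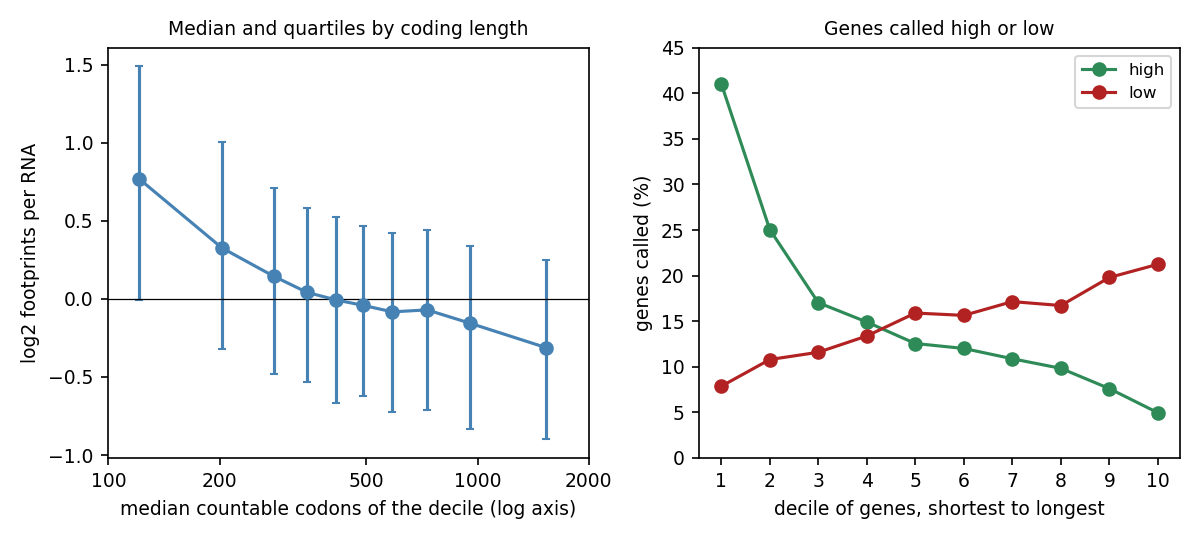
Left, the median log2 footprints per RNA (points) with the lower and upper quartiles (bars) in deciles of genes by countable codons, against the median length of the decile on a log axis. Right, the percentage of genes called high (green) and low (red) in each decile. The median goes from 0.77 to -0.31 and the high share from 41.1% to 4.94%.

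RNA level was related to the ratio less clearly. The median ratio was 0.25 in the decile of genes with the least RNA, where the floor near 1 TPM weighs most and 5.29% were high and none low. From the third decile to the highest the medians lay between -0.17 and 0.06. The G and C content from 250 bases before to 50 bases after the RefSeq start had a rank correlation of -0.155 with the ratio over 11385 genes. In the decile of genes with the lowest content (27 to 49.3%) the median ratio was 0.27, and in the decile with the highest (72.3 to 88%) it was -0.38.

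Within protein complexes, footprint levels of the subunits were usually closer together than RNA levels. The SD of log2 TPM over subunits was smaller in footprints for 10 of 14 complexes and larger for 4, and in all 14 the 4 footprint libraries lay apart from the 4 RNA libraries. In the 20S proteasome core, whose subunits are built in equal numbers, the SD was 0.584 in RNA and 0.285 in footprints. Psma4, with RNA of 97.5 ± 8.46 TPM, had the highest ratio of the 14 subunits (1.66), and Psmb4, with RNA of 433 ± 21.8 TPM, the lowest (-0.43). Their footprints were 234 ± 8.95 and 244 ± 5.73 TPM. In TRiC, also of equal subunits, the SD was 0.539 in RNA and 0.297 in footprints.

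The widest gap was in the initiation factor eIF3, with 1.32 in RNA and 0.627 in footprints. A single loosely bound subunit, Eif3j1, gave part of it. Eif3j1 RNA was 9.39, 10.6, 9.56 and 13.2 TPM and its footprints 140.2, 125, 128 and 129.6 TPM, a ratio of 4.00 ± 0.08, and without it, an exclusion chosen after seeing the data, the SDs were 0.984 and 0.628. In prefoldin the SD was 1.35 in RNA and 0.664 in footprints. The 4 complexes with a wider spread in footprints were Arp2/3, the V0 sector of the proton pump, respiratory complex I and the mitochondrial ribosome. For complex I the difference was small (0.871 and 0.914), and its extremes included Ndufb3 (2.61) and Ndufa4 (2.43) above, and Ndufb9 (-0.74) below. For the 81 cytosolic ribosomal proteins, low as a group, the spread hardly differed between assays (0.847 and 0.804).

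**Figure D5:**
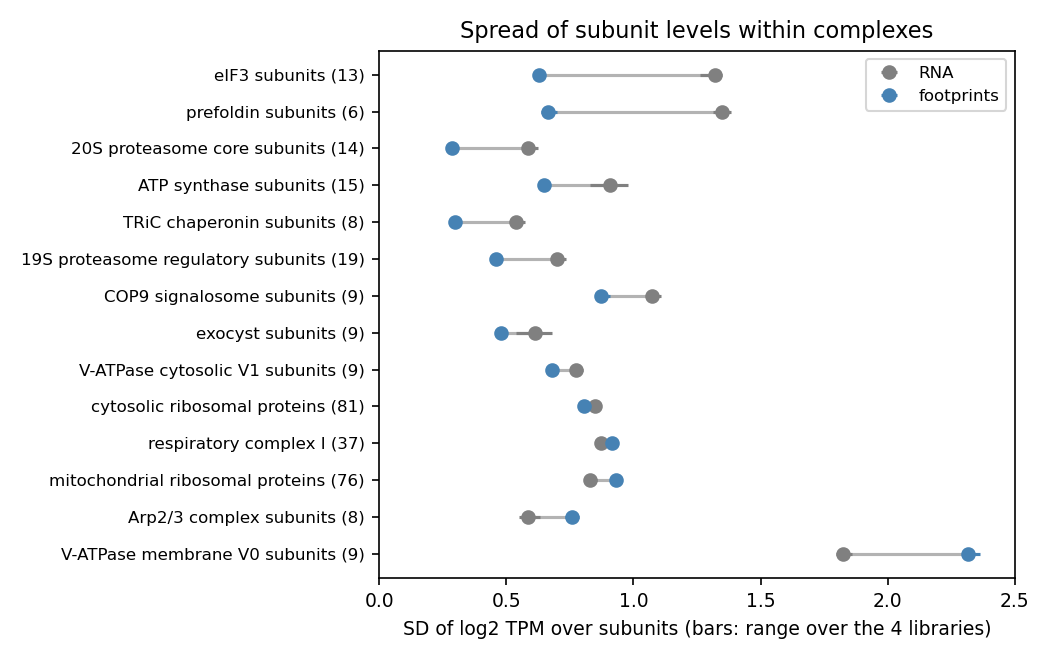
SD of log2 TPM over the subunits of 14 complexes in RNA (grey) and footprints (blue), with bars for the range over the 4 libraries and the number of subunits in brackets. From eIF3 at the top to cytosolic ribosomal proteins the footprint point lies to the left of the RNA point, and in the lowest 4 complexes it lies to the right.

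Genes of a family that encode like proteins could differ severalfold. H3f3a and H3f3b encode the same histone H3.3 and have 117 countable codons each. H3f3a had RNA of 592, 504, 565 and 579.7 TPM and footprints of 462, 475, 490.2 and 473 TPM, a ratio of 0.16. H3f3b had less RNA in every library, 422, 461, 418 and 428 TPM, and more footprints in every library, 1616, 1635, 1659 and 1631 TPM, a ratio of 2.32 ± 0.04. Among 13 tubulin genes none was high and 3 were low (23.1%, against 15% of all genes). Tuba1b lay at -2.77 ± 0.05 and Tuba1a at -1.23 ± 0.05, while Tubb2a lay at 0.50. The alpha-tubulins are nearly identical and reads shared among them could be split in either assay.

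Immediate-early genes, which neurons induce with activity, had 14 of 39 high (35.9%) and 2 low (5.13%), against 15.6% and 15% of all genes. Egr1, a zinc-finger transcription factor, lay at 2.31 ± 0.05, with RNA of 113, 130.0, 107 and 115 TPM and footprints of 415, 439, 462 and 424 TPM. Jund (-1.84 ± 0.05) and Klf4 (-1.08) were the low ones, and Klf4 was close to the minimum. Arc, the activity-regulated synaptic gene, chosen after its value was seen, was typical at 0.00, with RNA of 215, 216, 180.3 and 169.6 TPM and footprints of 155, 168, 141 and 128 TPM. Replicates 3 and 4 of Arc lay below replicates 1 and 2 in both assays. Large chromatin regulators had 8 of 40 low and 2 high, from Ehmt2 (-2.07) and Tet3 (-2.04) to Atrx (2.01), where 15% of all genes were low. With the trend over length removed that list's median relative to all genes went from -0.51 to -0.075. Motor proteins had 11 of 30 high (36.7%) and 2 low (6.67%). The light chains Dynll2 (2.65) and Dynlt3 (2.35) were at the top and the kinesins Kif5a (-2.12) and Kif21b (-1.78) at the bottom.

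Markers of cell types lay near the typical gene as groups, with medians between -0.10 and 0.70 in 10 lists. The medians were 0.70 for myelin, 0.58 for astrocytes, 0.46 for CA1 pyramidal cells, 0.62 for interneurons, 0.12 for endothelial and mural cells and -0.10 for microglia. Within them single genes were far out. Ermn, an oligodendrocyte cytoskeletal gene, lay at 3.51 ± 0.07, and S100b, the astrocyte calcium-binding protein gene, at 2.56 ± 0.09.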

How the data were processed

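Per the submitters' processing notes, the tools were cutadapt 1.7.1, Trimmomatic 0.32, Bowtie2 2.1.0, TopHat2 2.0.9, SAMtools 0.0.19, bedtools and RSEM 1.2.11, with mm10. The authors deposited estimated counts and TPM per gene. Per the labels' protocols, RNA came from part of each lysate and monosome footprints from the rest. A floor near 1 TPM, TPM totals above the sum TPM is scaled to (1010235 to 1014087) and a possible adjustment between replicates 1 and 2 and replicates 3 and 4 (that direction held 17.5% of the variance within RNA and 27.1% within footprints, against an even share of 33.3%) are not explained in the sources used here, so p-values may be too small.

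Estimated counts of 4 RNA and 4 footprint libraries were rounded and fitted in R 4.3.3 with edgeR 4.0.16 (filterByExpr with a minimum count of 10, TMM, robust quasi-likelihood F-test, Benjamini-Hochberg adjustment over 14355 genes). Adjusted p-values are from edgeR. SE is the absolute log2 ratio over the square root of F. The fit was checked on simulated data. Summaries were made in Python 3.11.15. Symbols were matched to RefSeq GRCm38.p6 (13630 directly, 678 by synonym, 47 unmatched). The tables hold 6 columns that were not used, and 5 labelled samples were not analysed here. Same-numbered RNA and footprint libraries deviated together little (correlations of 0.016, 0.099, 0.055 and 0.093 over genes). Libraries of different numbers gave -0.093 to 0.055. No label says that equal numbers share a lysate. The main fit has no replicate block, and counts with the block are given in the closing section.

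The members and the 60 gene lists were chosen with earlier results of these data known. Named are the 20 highest and 20 lowest called genes with at least 5 TPM in RNA and libraries of the assays apart, the 2 highest and 2 lowest of each list (any member of lists of up to 15), the 10 genes with most footprints, and Fmr1. Some genes that meet this rule are not reported here. Lists are described by counts and medians, with no set test. Counting intervals are not given, because the floor hides the counts behind low values.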

Additional observations from a re-analysis of the deposited data

Results flagged for a closer look

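Among 338 sets of 4 libraries (169 named genes in RNA and in footprints), 8 (2.37%) had 1 library far from the other 3, by a gap over range above the critical value for 4 values, where chance gives about 1 in 20. In RNA, Cplx2 was low in replicate 3 (62.0 TPM against 73.4 to 74.7), Hnrnpa2b1 high in replicate 1 (67.3 TPM against 59.5 to 60.5), Sephs2 low in replicate 2 (72.9 TPM against 86.9 to 89.3), Gria1 low in replicate 3 (415 TPM against 443 to 446), Kcnh3 high in replicate 4 (119 TPM against 110.2 to 112) and Bai2 low in replicate 2 (460.4 TPM against 469.8 to 472). In footprints, Stt3b was high in replicate 2 (72.7 TPM against 68.3 to 69.0) and Cacna2d1 low in replicate 3 (137 TPM against 142 to 143). The flags fell in replicates 1 to 4 and in both assays, and for these 8 genes the calls were the same in each fit that left out 1 replicate. No library total, median count, TPM total or share of the 10 most abundant genes stood apart.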

How the results depend on the processing

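The direction and threshold held for most named genes under each setting. The counts of 2238 high and 2153 low genes were 2237 and 2155 with the replicate number as a block, with 2235 and 2152 genes called in both fits, and 1949 and 2444 with library totals, which moved the all-gene median from 0.03 to -0.07. They moved most with 1 TPM subtracted, to 2806 and 2863, but that setting has no test and counts genes by size alone. glmTreat (a test against the 2-fold minimum itself) gave 1784 and 1798. At least 5 TPM in both assays gave 1839 and 1704, and limma on log2(TPM + 1) gave 1829 and 2115. With the length trend removed, and the p-values of the main fit kept, the counts were 1973 and 1993. DESeq2 gave 2158 and 2259. Leaving out 1 replicate gave 2252 to 2281 high and 2110 to 2157 low. The block and DESeq2 changed the call of none of the 169 named genes, and the length trend of 11, among them Rps6 (-1.04), Rpl15 (-1.15), Srsf9 (-1.25), Pfdn5 (-1.19), Ndufb9 (-1.19), Cyfip2 (-0.79) and Klf4 (-0.99). Cat missed the minimum with library totals (0.94) and with limma on log2(TPM + 1) (0.93), and Srsf9, Prpf8, Grin2a and Gabbr2 reached it with library totals (-1.05, -1.03, -1.03 and -1.06).

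List medians are given here relative to all genes. With the length trend removed, 7 turned sign: mitochondrial ribosomal proteins (-0.069), complex I (-0.26), complexes III and IV (-0.23), selenoproteins (-0.13), the COP9 signalosome (-0.014), cholesterol genes (-0.055) and ependyma, choroid and blood markers (-0.36). Among those that moved with it were V1 to 1.23, splicing factors to 1.41, GABA receptors to 0.94, potassium channels to -0.80, neuropeptides and granins to 1.27, FMRP-bound mRNAs to -0.41 and cytosolic ribosomal proteins to -1.98. With 1 TPM subtracted they were, for V1, 1.66, splicing factors 1.66, GABA receptors 1.03, potassium channels -0.83, neuropeptides 1.86, chaperones 1.57, FMRP-bound mRNAs -0.70 and ribosomal proteins -1.26. With limma on log2(TPM + 1) they were, for V1, 1.44, splicing factors 1.40, GABA receptors 0.79 and chaperones 1.34. Chaperones were at 1.45 with at least 5 TPM in both assays. Leaving out 1 replicate gave 1.39 to 1.44 for chaperones and 1.67 to 1.80 for neuropeptides. For starts, the tract within 5 bases gave 50% of ribosomal protein genes and 23.8% of all genes, and C with 6 pyrimidines 1.36% of all. The cause was not tested beyond what each setting removes. Genes near the floor, and very short or overlapping genes, are the least certain.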
